A study of Mus musculus with 8 samples.

Results

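The genes described here are those of constitutive heterochromatin and its repressive histone marks: the 3 HP1 proteins (Cbx1, Cbx3 and Cbx5), the histone methyltransferases Suv39h1, Suv39h2, Setdb1, Ehmt1, Ehmt2 and Ezh2, and the corepressor Trim28. They were chosen by name, 10 genes in all, with earlier results of these data known. Of these, 8 had an array row annotated with that gene alone, among 22180 genes so annotated. Suv39h1 and Suv39h2 had no such row and were not analysed here. For a gene with several rows, the row of highest mean over the arrays was used, which applied to Cbx3 (4 rows).

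The series compared whole pancreas of C57 BL6 mice labelled LmnaWT (WT, 4 arrays) with pancreas labelled LmnaKO (KO, 4 arrays). Lmna encodes lamin A/C, a filament protein of the nuclear lamina, and the series title places its loss in acinar cells, the enzyme-secreting cells of the exocrine pancreas. Both groups received tamoxifen, a drug commonly used to activate Cre recombinase, by intraperitoneal injection at 3 mg per 40 g, and total RNA was taken 6 days later. Each group held 3 males and 1 female. The sources used here give neither the promoter driving any recombinase nor the age of the animals. The labels do not say that the 4 arrays of a group came from separate animals, so the spread that p-values rest on may be technical. The RNA came from the whole organ, so fewer cells of a type and less RNA per cell cannot be told apart.

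Heterochromatin is compacted, mostly silent chromatin, and in most nuclei a large share of it lies against the nuclear lamina. SUV39H1, SUV39H2, SETDB1 and the EHMT1 and EHMT2 pair (GLP and G9a) methylate histone H3 at K9, HP1 proteins bind the methylated residue through their chromodomain, and TRIM28 brings SETDB1 and HP1 to sites chosen by zinc finger repressors. EZH2 is the catalytic subunit of Polycomb repressive complex PRC2, which methylates histone H3 at K27 at developmental genes.

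All values are log2 expression, and changes are KO minus WT on that scale. The targeted gene did not check the genotype labels. Lmna read 2.54, 3.13, 2.67 and 2.88 in the WT arrays and 2.33, 2.58, 2.73 and 2.61 in the KO arrays (change -0.24 ± 0.15, SE, limma adjusted p = 0.264). The sources used here do not place its probes inside or outside the deletion. Its mean level over the arrays was low (2.68, percentile 52.8 of all genes), which leaves less room for a fall to show. The arrays read as pancreas: the mean level of 10 measured acinar markers was 10.27 to 10.41 in WT and 9.64 to 9.79 in KO, and 4 of the 10 fell while 0 rose. The interquartile range of an array's values was 2.45 to 2.65 in KO against 2.06 to 2.20 in WT. Of 10 macrophage markers 3 rose and 0 fell (9 and 0 at an unadjusted p of 0.05, limma), with a median change of 1.42. The ranges of their mean level overlapped (5.03 to 6.52 in KO, 3.72 to 5.43 in WT). Of 17 proliferation markers 7 rose and 0 fell (11 and 0 unadjusted), with mean levels of 3.69 to 4.33 in KO and 3.09 to 3.55 in WT. Of 9 stellate cell and fibroblast genes 1 rose and 0 fell (5 and 0 unadjusted), with a median change of 1.07. Their mean levels were 5.02 to 6.84 in KO against 4.55 to 5.76 in WT. Their changes ran from -0.82 for Acta2 to 1.29 for Pdgfra, and that of Des was -0.12, none of these called. Of the other markers 1 of 5 ductal genes rose and 1 fell (2 and 2 unadjusted). In the islet list 1 of 6 and in the T and NK cell list 1 of 7 fell (1 and 2 unadjusted). Neutrophil, B cell and endothelial markers gave 0 calls (limma; 0, 0 and 1 at an unadjusted p of 0.05). The part of other cells and of the range of values in the results below was not tested.

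Of the 8 measured heterochromatin genes, Setdb1, Trim28, Cbx1 and Cbx3 rose in KO pancreas at an adjusted p of 0.05 (limma, 4 against 4 arrays), each by 0.61 to 0.76 log2 units. The direction of Cbx3 turned with the array row. By its row 4, the only row standing beside neighbours of the gene (described below), it fell by 0.63. The count then became 3 higher and 1 lower. By the mean of its rows its change was 0.39 (limma adjusted p = 0.0585), and 3 of the 8 genes were called. Cbx5, Ehmt1, Ehmt2 and Ezh2 did not pass, and 0 fell (5 were higher and 0 lower at an unadjusted p of 0.05). The median change of the 8 was 0.60. Over the whole array 14.6% of genes were called higher and 6.99% lower. The heterochromatin genes all lay in the middle levels, with means over the arrays from 4.21 for Cbx1 to 7.43 for Cbx3, and of the 5996 genes of mean level 4 to 8 36.8% were called higher and 3.74% lower. Against that band, 4 of 8 is not a result particular to these genes. Genes of that band had a median change of 0.457, against -0.056 for all genes. In the same 4 genes all KO arrays lay above all WT arrays, as they did in 15.3% of all genes and 38.4% of that band. Among males only, after quantile renormalization of the deposited values and after cyclic loess, 0 of the 8 were called (limma). At an unadjusted p of 0.05, 4, 3 and 3 of them were then higher and 0 lower. The 4 genes called above changed by 0.55 to 0.74 among males (3 against 3 arrays, limma adjusted p = 0.0554 to 0.0892). Their changes were 0.27 to 0.35 after quantile renormalization and 0.28 to 0.37 after cyclic loess. The 4 calls held with each array left out in turn, with adjusted p from 0.00291 to 0.0429.

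**Figure D1:**
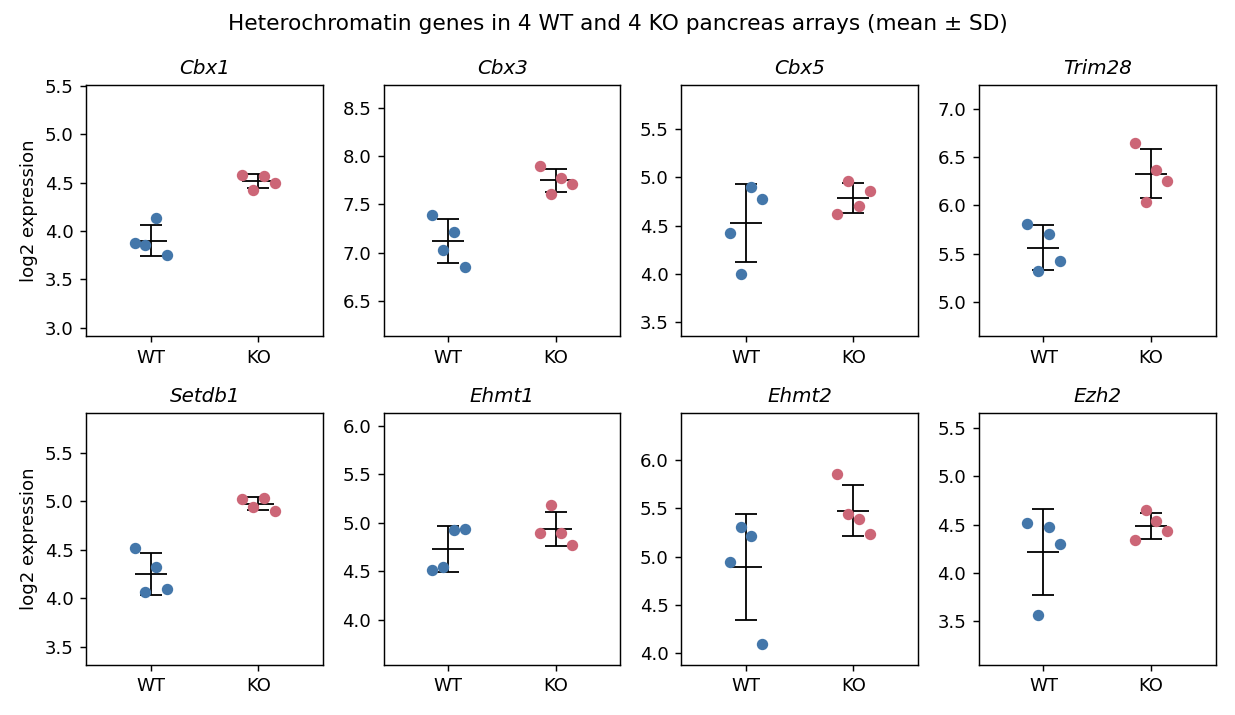
Log2 expression (vertical axes, each spanning the same range) of the 8 measured heterochromatin genes in 4 WT and 4 KO arrays. Points are arrays and bars the mean ± SD. In Cbx1, Cbx3, Trim28 and Setdb1 the groups do not overlap, while in Cbx5, Ehmt1, Ehmt2 and Ezh2 they do. Cbx3 is drawn by its row of highest mean.

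Among the HP1 genes, Cbx1 encodes HP1 beta, a form concentrated on pericentric heterochromatin. In WT arrays, given here and below in the order of their replicate numbers, it read 3.87, 3.85, 4.13 and 3.75, and in KO arrays 4.58, 4.42, 4.57 and 4.50. The groups did not overlap, and the lowest KO array stood above the highest WT array. The change was 0.61 ± 0.12 (SE, n = 4 per group, 1.53-fold, limma adjusted p = 0.00887). It was 0.27 after quantile renormalization and 0.30 after cyclic loess, where it was not called.

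Cbx5 encodes HP1 alpha, the form most closely tied to compaction of silent chromatin. Its values were 4.42, 4.0, 4.90 and 4.77 in WT and 4.62, 4.96, 4.70 and 4.86 in KO. The groups overlapped, and the WT arrays spread over nearly the whole range (SD 0.40 in WT and 0.15 in KO). The change of 0.26 ± 0.19 (95% interval -0.17 to 0.70, limma adjusted p = 0.324) did not pass, and its sign turned to -0.12 after quantile renormalization and to -0.10 after cyclic loess.

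Cbx3 encodes HP1 gamma, which is also found at transcribed genes, and its direction depended on the array row. The row of highest mean read 7.39, 7.03, 7.21 and 6.85 in WT and 7.90, 7.61, 7.77 and 7.71 in KO, a change of 0.63 ± 0.14 (1.55-fold, limma adjusted p = 0.0148). Every KO array of that row lay above every WT array. Called row 1 here, it was followed by 3 further rows of the same symbol, ranked by mean level.

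Row 2 rose by 0.88 ± 0.21 (limma adjusted p = 0.0196 over 23521 rows) and row 3 by 0.69 ± 0.14 (adjusted p = 0.0108). Row 4 moved the other way. It read 6.46, 6.65, 6.13 and 6.18 in WT and 5.60, 5.77, 5.91 and 5.61 in KO, so every KO array lay below every WT array. Its change was -0.63 ± 0.15 (0.645-fold, limma adjusted p = 0.0178).

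The rows differ in their place on the array design. Of the annotated rows, 97.6% have neighbours in identifier order that are genes of the same chromosome on both sides, so the identifiers largely follow the genome. Row 4 stood between Nfe2l3 and Snx10, both genes of chromosome 6. In the RefSeq table of GRCm38.p6 Cbx3 itself lies on chromosome 6 between Snx10 and Hnrnpa2b1, and Nfe2l3 is next beyond Hnrnpa2b1. Row 1 stood between Itm2b and Lrch1, genes of chromosome 14, row 3 between Ndufb3 and Gm20257 of chromosome 1, and row 2 between Arf1 of chromosome 11 and Akr1cl of chromosome 1. By identifier order only row 4 thus stood at the place of Cbx3, and rows 1 to 3 stood among genes of other chromosomes. The sources used here do not give the transcripts that each row's probes match, so the value of Cbx3 is uncertain. Under quantile renormalization row 4 fell by 1.02 (adjusted p = 0.0098) and under cyclic loess by 1.04 (adjusted p = 0.0103), while rows 1 to 3 lost their calls (0.28 to 0.58). Under median centring row 4 showed -0.50 (limma adjusted p = 0.036), and among males only -0.65 (limma adjusted p = 0.0841), no longer called.

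**Figure D2:**
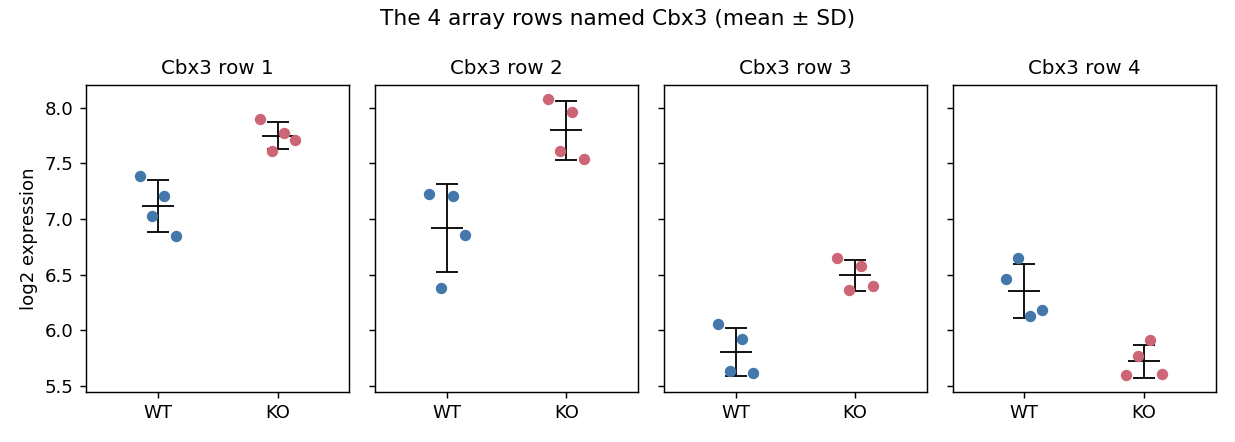
Log2 expression (vertical axis) of the 4 array rows annotated as Cbx3, ranked by mean level, in WT and KO arrays; points are arrays and bars the mean ± SD. Rows 1 to 3 stand higher in KO and row 4 stands lower, from a mean of 6.36 to 5.72.

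Trim28 (KAP1) is the scaffold that zinc finger repressors recruit to silence transposable elements and imprinted regions. It read 5.81, 5.32, 5.70 and 5.43 in WT and 6.65, 6.04, 6.37 and 6.25 in KO, with no overlap between the groups. KO 1 was the highest array. The change was 0.76 ± 0.16 (1.70-fold, limma adjusted p = 0.0127). It was 0.35 after quantile renormalization and 0.36 after cyclic loess, neither of them called.

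Setdb1 is the H3K9 methyltransferase that acts with TRIM28. Its values were 4.52, 4.06, 4.32 and 4.09 in WT and 5.03, 4.94, 5.04 and 4.90 in KO. The KO arrays lay within a narrow band above all WT arrays (SD 0.07 in KO and 0.21 in WT). The change was 0.73 ± 0.13 (1.66-fold, limma adjusted p = 0.00644), the smallest p among the 8 genes, and it was 0.35 after quantile renormalization and 0.37 after cyclic loess.

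Setdb1 and Trim28 act as partners and both rose, and their upstream sequences are shown for that reason. Each is the 250 bases before the annotated gene start, read 5′ to 3′ on the gene's strand, from RefSeq on GRCm38.p6. Setdb1 is at chr3:95357203-95357452 on the minus strand and Trim28 at chr7:13023902-13024151 on the plus strand. Capitals mark matches, on either strand, to GGGCGG (a GC box), CCAAT, or TTCCCGCC (an E2F-type site).
Setdb1: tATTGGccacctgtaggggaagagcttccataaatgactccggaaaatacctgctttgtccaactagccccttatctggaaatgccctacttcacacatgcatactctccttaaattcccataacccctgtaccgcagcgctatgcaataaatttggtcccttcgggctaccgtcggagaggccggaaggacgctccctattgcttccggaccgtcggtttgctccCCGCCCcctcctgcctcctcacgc
Trim28: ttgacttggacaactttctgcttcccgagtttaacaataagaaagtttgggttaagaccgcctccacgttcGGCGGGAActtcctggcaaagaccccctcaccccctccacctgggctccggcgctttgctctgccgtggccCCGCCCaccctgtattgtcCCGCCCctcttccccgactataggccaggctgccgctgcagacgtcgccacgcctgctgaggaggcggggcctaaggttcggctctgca
In Setdb1 a GC box began 24 bases before the start and a CCAAT box 249 bases before it. In Trim28 GC boxes began 108 and 89 bases before the start, and the E2F-type site 179 bases before it. A GC box was present in the upstream windows of 9 of the 10 genes chosen, all but Ezh2, and in 35.4% of 27025 genes with a RefSeq window. A CCAAT box was present in Cbx5, Suv39h1, Setdb1 and Ezh2 (4 of 10, 37.5% of all genes). TTCCCGCC occurred in Suv39h2 and Trim28 (2.13% of all genes), TTTGGCGC in Cbx3 (0.485%) and TTTCGCGC in 0 of the 10 (0.3%). The windows with a GC box were those of called and uncalled genes alike.

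Genes that work with SETDB1 and HP1 were taken from a list of partners of HP1 and of H3K9 methylation, 20 of 22 of them measured. Of these 11 rose and 0 fell (13 and 0 at an unadjusted p of 0.05), with a median change of 0.52. That was 55% called higher, against 14.6% of all genes and 36.8% of genes of mean level 4 to 8. The median change of that band was 0.457, and the list was not limited to the band. Lrif1, which encodes a protein that binds HP1, showed the smallest p in the list. It read 3.28, 2.45, 2.95 and 3.37 in WT and 4.33, 4.13, 4.40 and 4.32 in KO, and no KO array came near the WT range. The change was 1.29 ± 0.19 (2.44-fold, limma adjusted p = 0.00362).

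Atf7ip, the cofactor that stabilizes SETDB1 in the nucleus, read 5.20, 4.89, 5.43 and 5.55 in WT and 6.11, 6.49, 6.28 and 6.32 in KO. It rose by 1.03 ± 0.16 (2.04-fold, limma adjusted p = 0.00405). Tasor, the scaffold of the HUSH complex that silences retroelements with SETDB1, rose by 1.25 ± 0.24 (2.37-fold, limma adjusted p = 0.00784). Its values were 5.0, 4.25, 4.57 and 5.46 in WT and 5.84, 6.17, 6.05 and 6.20 in KO, so the groups did not overlap. Unlike Setdb1 itself, Lrif1, Atf7ip and Tasor were called in each alternative tried, the 2 renormalizations and males only included. The HUSH subunit Pphln1 (0.43 ± 0.12, limma adjusted p = 0.0327) and the HUSH-associated ATPase Morc2a (0.66 ± 0.14, limma adjusted p = 0.013) also rose. These last genes were taken up after their values were seen, and their calls were lost among males only and under both renormalizations. Pphln1 lost its call in 11 of 19 alternatives, among them the replicate block (limma adjusted p = 0.0503) and 6 of the 8 fits that left out an array. The HUSH subunit Mphosph8 had no row of its own symbol.

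Ehmt1 and Ehmt2 form the heterodimer that places H3K9 dimethylation in euchromatin. Ehmt1 read 4.51, 4.54, 4.93 and 4.94 in WT and 4.90, 5.18, 4.90 and 4.77 in KO. The groups overlapped, and the change was 0.21 ± 0.15 (95% interval -0.13 to 0.54, limma adjusted p = 0.317). It turned to -0.20 after quantile renormalization and to -0.17 after cyclic loess.

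Ehmt2 read 4.94, 5.31, 5.21 and 4.10 in WT and 5.85, 5.44, 5.39 and 5.23 in KO. WT 4 stood far below the other WT arrays, while the lowest KO array lay inside their range. The change was 0.59 ± 0.26 (95% interval 0.02 to 1.16, limma adjusted p = 0.119), as large as that of Cbx1 but not called, and without WT 4 it was 0.33 (limma adjusted p = 0.208). Wiz, the zinc finger partner of the dimer and taken up after its value was seen, had a change of -0.05 ± 0.12 (limma adjusted p = 0.795). It was 0.01 without KO 2 and 0.09 after median centring.

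Ezh2 is the methyltransferase of PRC2 that is most abundant in dividing cells, while its paralogue Ezh1 serves in resting ones. Ezh2 read 4.52, 3.56, 4.47 and 4.30 in WT and 4.34, 4.65, 4.54 and 4.43 in KO. Only WT 2 stood apart, below all other arrays. The change was 0.27 ± 0.21 (95% interval -0.18 to 0.73, limma adjusted p = 0.333). It was 0.06 without WT 2, and -0.06 both after quantile renormalization and after cyclic loess.

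Ezh1 read 5.89, 4.41, 5.20 and 5.67 in WT and 6.35, 5.92, 6.29 and 6.30 in KO. The groups did not overlap, though WT 1 at 5.89 lay just below KO 2 at 5.92. It rose by 0.92 ± 0.28 (1.90-fold, limma adjusted p = 0.0447), and its call was lost in 11 of 19 alternatives. Without WT 2 its change was 0.63 (limma adjusted p = 0.0505), and without KO 4 it was 0.89 (limma adjusted p = 0.105). Leaving out any single array other than WT 1 ended the call.

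Of the 10 PRC2 subunits besides Ezh2, 5 rose and 0 fell (6 and 0 at an unadjusted p of 0.05), with a median change of 0.34. That was 50% called higher, against 14.6% of all genes and 36.8% of genes of mean level 4 to 8. Eed, the subunit that reads methylated H3K27, rose by 0.96 ± 0.18 (1.95-fold, limma adjusted p = 0.00784). It read 4.91, 4.21, 4.16 and 4.61 in WT and 5.59, 5.26, 5.33 and 5.57 in KO, with no overlap, and lost its call among males only and after quantile renormalization. The histone chaperones Rbbp4 (0.50 ± 0.14, limma adjusted p = 0.0308) and Rbbp7 (0.38 ± 0.11, limma adjusted p = 0.0402) rose less. Each lost its call in 11 alternatives, Rbbp7 with the replicate block among them (limma adjusted p = 0.0667). Beyond those, Rbbp7 was not called after cyclic loess, where its sign turned. Suz12, the remaining core subunit, taken up after its value was seen, had a change of 0.25 ± 0.26 (limma adjusted p = 0.488), and -0.04 without WT 2.

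PRC1 places a ubiquitin mark on histone H2A and can bind the mark made by PRC2. Of 16 measured subunits 5 rose and 0 fell (7 and 0 at an unadjusted p of 0.05), with a median change of 0.34. The share called higher, 31.2%, was above that of all genes (14.6%) and below that of genes of mean level 4 to 8 (36.8%). The ubiquitin ligase Rnf2 (RING1B) rose by 1.28 ± 0.26 (2.42-fold, limma adjusted p = 0.0102), Pcgf6 by 0.58 ± 0.14 (limma adjusted p = 0.0176) and Pcgf1 by 1.17 ± 0.28 (limma adjusted p = 0.0197). In Rnf2 the highest WT array (5.11) lay below the lowest KO array (5.34). Each of the 3 lost its call among males only, and Pcgf6 and Pcgf1 also under both renormalizations. The groups of Pcgf1 overlapped (KO 2 at 3.91, WT 1 at 4.17), and its call was also lost without WT 3, WT 4, KO 3 or KO 4 (limma adjusted p = 0.0529 to 0.0575). That of Pcgf6 was lost without KO 4 (limma adjusted p = 0.0597).

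Whether close relatives changed by unequal amounts was tested on the difference between the 2 genes within each array, which removes any shift common to both. Of 6 pairs planned 5 were measured (exact two-sided permutation test, Benjamini-Hochberg over the 5 pairs). A single differing pair could not pass this test, since its adjusted p cannot go below 0.143, so the values are given as a description. The smallest p was that of Ezh2 minus Ezh1, which changed by -0.65 ± 0.23 (exact permutation p = 0.0857, adjusted p = 0.358). Cbx5 minus Cbx1 changed by -0.35 ± 0.22 (exact permutation p = 0.143), Cbx5 minus Cbx3 by -0.36 ± 0.27 (exact permutation p = 0.257) and Ehmt1 minus Ehmt2 by -0.38 ± 0.38 (exact permutation p = 0.371). Cbx1 minus Cbx3 changed by -0.02 ± 0.11 (exact permutation p = 0.914). With Cbx3 by row 4, that last difference was 1.25 ± 0.19 and Cbx5 minus Cbx3 was 0.90 ± 0.34. Each then reached 0.0286, the smallest exact p that 4 against 4 arrays allow, and neither passed after adjustment (adjusted p = 0.0714).

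The other chromatin lists were counted in the same way as the heterochromatin genes. Over 108 related chromatin genes of 10 lists, 41 rose and 0 fell (38.0%, median change 0.40, and 55 and 1 at an unadjusted p of 0.05). The share called higher was 14.6% of all genes and 36.8% of genes of mean level 4 to 8. Counts of each list below are to be read beside these shares. The related genes were not limited to that band, and some lay below it, such as Kdm4d at 1.19 and Bmi1 at 1.86. Their 38.0% is thus not a like-for-like match to the band, and their share within it was not taken. The count of rises was 27 without WT 4, 26 without KO 3, 21 without KO 4, and 11 among males only. It was 11 after quantile renormalization and 15 after cyclic loess, where 10.5% and 12.7% of that band were called higher. Falls numbered 2 without WT 1 and 2 after each renormalization.

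Of 11 measured enzymes that remove H3K9 methylation 5 rose and 0 fell (6 and 0 unadjusted), with a median change of 0.36. Jmjd1c read 4.97, 3.95, 4.72 and 5.23 in WT and 5.83, 6.18, 5.79 and 6.05 in KO, with no overlap, and rose by 1.24 ± 0.25 (2.37-fold, limma adjusted p = 0.00965). Its call held in each alternative tried. Kdm3b rose by 0.99 ± 0.15 (limma adjusted p = 0.00396) and Kdm7a by 1.20 ± 0.26 (limma adjusted p = 0.0127), and both lost their call after quantile renormalization, Kdm3b also after cyclic loess (0.59, limma adjusted p = 0.0784). Of the H3K27 demethylases 0 of 2 rose (1 unadjusted, limma).

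Deacetylases and subunits of the nucleosome remodelling complex NuRD, which act with TRIM28 and HP1, held 6 rises and 0 falls among 14 measured genes (10 and 0 unadjusted), with a median change of 0.53. The scaffold Sin3a read 4.62, 4.37, 4.56 and 4.44 in WT and 5.34, 5.40, 5.44 and 5.29 in KO, and its tight groups lay well apart. It rose by 0.87 ± 0.11 (1.83-fold, limma adjusted p = 0.00204). The NuRD subunit Mta2 rose by 1.14 ± 0.15 (2.21-fold, limma adjusted p = 0.00242) and Gatad2b by 0.53 ± 0.11 (limma adjusted p = 0.0123). Sin3a and Mta2 were called in each alternative tried, and Gatad2b lost its call among males only and under both renormalizations.

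In DNA methylation genes 2 of 11 rose and 0 fell (4 and 0 unadjusted), with a median change of 0.20. Uhrf2, a reader of modified cytosine and H3K9 methylation, rose by 0.96 ± 0.18 (limma adjusted p = 0.00732) and the methyl-CpG binding protein Mbd2 by 0.38 ± 0.12 (limma adjusted p = 0.0451). Mbd2 lost its call in 13 alternatives, the replicate block among them (limma adjusted p = 0.0867). Beyond those, Mbd2 was not called after cyclic loess, where its sign turned. Uhrf2 lost its call among males only. Methyltransferases of the active marks H3K4 and H3K36, set beside the repressive ones, held 3 rises and 0 falls among 13 (4 and 0 unadjusted), with a median of 0.23. They were Nsd2 (0.85 ± 0.13, limma adjusted p = 0.00407), called in each alternative tried, Kmt2e (0.74 ± 0.14, limma adjusted p = 0.00873) and Setd1a (0.41 ± 0.13, limma adjusted p = 0.0446), of which Kmt2e lost its call under both renormalizations and Setd1a in 12 alternatives, the replicate block among them (limma adjusted p = 0.0544). Among H4K20 methyltransferases 0 of 3 rose or fell (0 unadjusted, limma). Whether these lists differ from one another was not tested.

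Proteins that hold heterochromatin at the nuclear envelope gave 4 rises and 0 falls among 8 measured (4 and 1 unadjusted), with a median change of 0.48. The inner membrane protein emerin (Emd) read 4.34, 4.28, 4.14 and 4.24 in WT and 5.13, 4.78, 5.25 and 5.22 in KO, and rose by 0.85 ± 0.13 (1.80-fold, limma adjusted p = 0.00415). Its groups did not overlap. Lmnb1 (0.88 ± 0.19, limma adjusted p = 0.0124) and Lemd2 (0.84 ± 0.20, limma adjusted p = 0.0184) also rose, while Lmnb2 had a change of -0.44 ± 0.15 (limma adjusted p = 0.0665), called without WT 1 (-0.57). Emd lost its call after quantile renormalization, Lmnb1 among males only and Lemd2 in 4 alternatives. The mean level of Lmnb2 over the arrays was low (2.37). Of the proliferation markers 7 of 17 rose (median 0.59), among them Pcna by 1.28 ± 0.15 (limma adjusted p = 0.00189), Top2a by 1.02 ± 0.22 (limma adjusted p = 0.0124) and Mcm4 by 1.20 ± 0.26 (limma adjusted p = 0.0133). Top2a and Mcm4 lost their call among males only. Mki67 (limma adjusted p = 0.0872), Ccnb2, Cdk1, Aurkb, Birc5, Bub1 and Plk1 were among the markers not called.

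**Figure D3:**
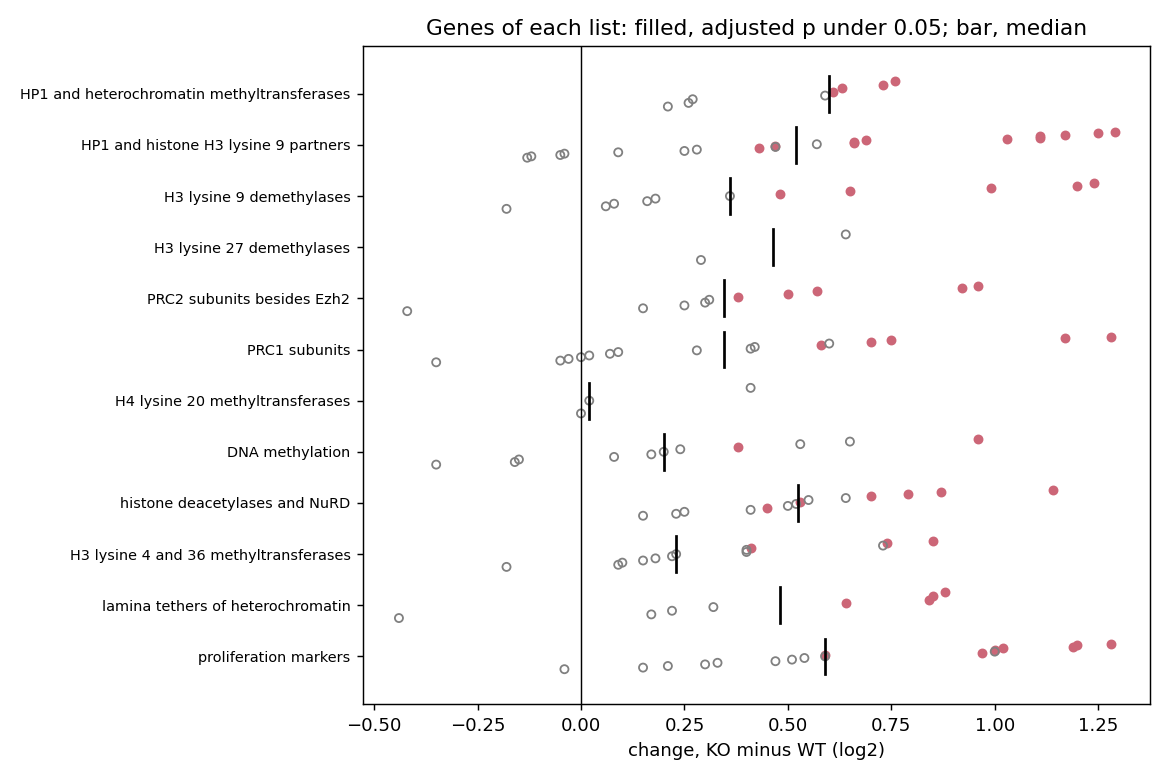
Change of each measured gene (horizontal axis, log2, KO minus WT) by list (vertical axis). Filled points passed a limma adjusted p of 0.05, open points did not, and bars are list medians. The medians of the lists run from 0.02 for H4K20 methyltransferases to 0.60 for the HP1 and methyltransferase genes.

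**Figure D4:**
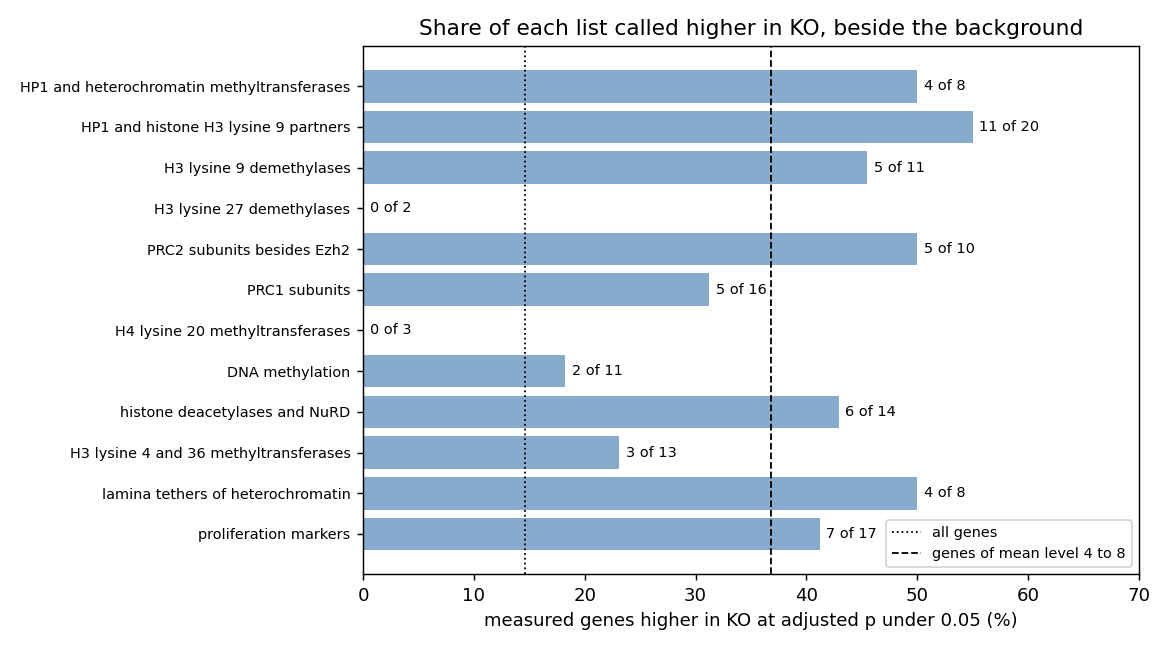
Share of each list's measured genes called higher in KO (horizontal axis, percent), with the counts beside the bars. The dotted line is the share of all genes (14.6%) and the dashed line that of genes of mean level 4 to 8 (36.8%). The bars of 4 of 8 heterochromatin genes and 11 of 20 partners reach past the dashed line. So do those of H3K9 demethylases (45.5%), PRC2 (50%), deacetylases and NuRD (42.9%), lamina tethers (50%) and proliferation markers (41.2%). The bars of the remaining lists, DNA methylation among them, do not. Lists besides the heterochromatin genes were not limited to that band of levels.

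The scaling moved the heterochromatin genes and the genes of middle levels together, in either direction. As deposited, the 8 genes changed by 0.21 to 0.76. Quantile renormalization gave -0.20 to 0.35 and cyclic loess -0.17 to 0.37, while the median change of genes of mean level 4 to 8 went from 0.46 to 0.07 and 0.08. Median centring gave 0.34 to 0.90 and a band median of 0.59, with 4 of the 8 genes, 51 related genes and 47.1% of the band called higher. With Cbx3 by its row of highest mean, the order of the genes was much the same. Setdb1, Trim28, Cbx1 and Cbx3 stood above Ehmt2 as deposited and under both renormalizations, and Cbx5, Ezh2 and Ehmt1 below it. The 4 genes called as deposited had adjusted p of 0.0948 to 0.209 (limma) after quantile renormalization and 0.0574 to 0.194 (limma) after cyclic loess.

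**Figure D5:**
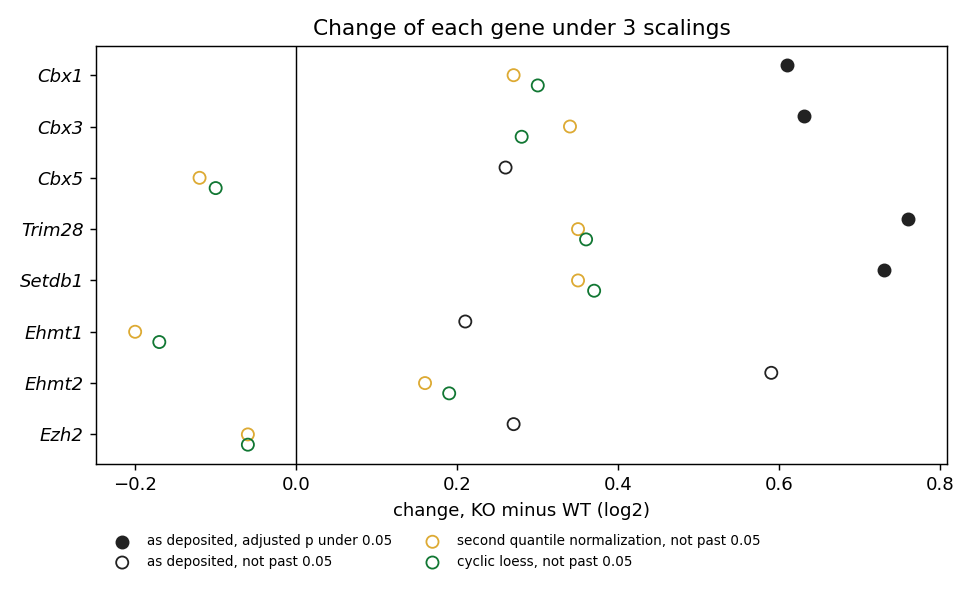
Change of each gene (horizontal axis, log2, KO minus WT) as deposited and after 2 renormalizations; filled points passed a limma adjusted p of 0.05. Setdb1, Trim28, Cbx1 and Cbx3 stay above 0 under each scaling without being called under the renormalizations, and Cbx5, Ehmt1 and Ezh2 cross 0. Cbx3 is drawn by its row of highest mean, and its row 4, not drawn, fell under each (-0.63, -1.02 and -1.04).

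The genotype change did not differ by sex past the threshold in any of the 8 genes (0 at an adjusted and 0 at an unadjusted p of 0.05, limma, against 0.00451% of all genes at the adjusted p), with differences from -0.51 for Ehmt1 to 0.72 for Ehmt2, female minus male. With 1 female per genotype, the lone female arrays were assumed to vary like the males. Setdb1 had the smallest p of the 8, and the 5 genes whose profile over the 8 arrays was nearest to it, by the mean absolute difference of values set relative to each gene's WT mean, were Qrich1 (0.05), Dcakd (0.056), Pstk (0.059), Stox2 (0.059) and Phykpl (0.061). Their changes ran from 0.62 for Dcakd to 0.75 for Stox2.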

How the data were processed

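Total RNA (100 ng) from 8 mouse pancreas samples was labelled with a whole-transcript kit and read on 1-colour arrays, 4 WT and 4 KO. The authors deposited normalized log2 values for 41345 rows. The submitters' processing notes name oligo, RMA and limma without versions; the log2 scale was read from the values (highest 12.47). Array background signal and scan dates were not used here, and the number of arrays limits the precision.

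Rows were named by the platform annotation: 23521 carry 1 symbol, 1814 several and 16010 none, and the last 2 kinds were left out. The row of highest mean stood for each of 22180 genes. limma 3.58.1 in R 4.3.3 (lmFit and eBayes, genotype as the only term, all 8 arrays) gave changes, and p-values were adjusted by Benjamini-Hochberg over all genes, with a threshold of 0.05. Differences between related genes were tested by exact two-sided permutation of the 8 arrays. On simulated data 68.5% of changes of 1 log2 unit and 95.5% of changes of 2 were recovered among 22180 genes. Both sizes are larger than any change of the 8 heterochromatin genes (at most 0.76). A smaller change was also simulated, and the share recovered for it is not given here. Far fewer genes were changed in the simulation than were called here, so these shares do not give the power for the heterochromatin genes.

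The heterochromatin genes, the lists and the tests were chosen with earlier results of these data known. Named genes were all 10 of the set, up to 3 called genes of smallest p per related list, Ezh1, and the 5 genes nearest in pattern to the gene of the set with the smallest p. Lmna is given as the targeted gene. Pphln1, Morc2a, Wiz, Suz12 and Lmnb2 were added after their values were seen. The main fit and tests took the samples as unpaired. Only the replicate block and its paired test took the replicate numbers in the labels to pair the samples. Same-numbered WT and KO samples deviated together weakly (correlations 0.26, 0.17, 0.11 and 0.14). Samples of different numbers were not compared, so these values do not show pairing. The labels name no litter or day. Alternatives were each array left out, males only, sex or replicate number as a term, other scalings, filters, weights and row rules.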

Additional observations from a re-analysis of the deposited data

Results flagged for a closer look

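In 3 of 108 groups of 4 values examined, 1 array lay far from the other 3; chance gives about 1 in 20 groups. Ezh1 read 5.92 in KO 2 against 6.29 to 6.35 in the other KO arrays. Lmnb2 read 2.20 in WT 1 against 2.69 to 2.78 in the other WT arrays. The difference Cbx1 minus Cbx3 was -3.32 in KO 1 against -3.21 to -3.20 in the other KO arrays.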

How the results depend on the processing

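The count of heterochromatin genes higher in KO went from 4 to 0 among males only, after quantile renormalization and after cyclic loess, to 3 by the mean of a gene's rows, where Cbx3 was not called, and the count lower from 0 to 1 with Cbx3 by row 4, a choice made after seeing the data. The count of related genes higher, 41 as reported, was 11, 11 and 15 under the first 3 settings and 21 to 46 with 1 array left out. The count lower was 2 under each renormalization, 1 with array weights and 0 to 2 with 1 array left out. With the replicate block, 4 heterochromatin and 39 related genes were higher, and the paired test of the 5 gene differences gave adjusted p from 0.469 up (exact permutation of 4 pairs, which cannot go below 0.125 and so could not pass). Cbx1 minus Cbx3 (-0.02) turned to 0.02 among males, 0.22 by the mean of rows and 1.25 by row 4, and ran from -0.11 to 0.03 with 1 array left out. Cbx5 minus Cbx3 turned to 0.90 by row 4. Sign also turned, after quantile normalization and cyclic loess, in Cbx5 (-0.12 and -0.10), Ehmt1 (-0.20 and -0.17), Ezh2 (-0.06 and -0.06) and Suz12 (-0.16 and -0.16). It turned in Suz12 without WT 2 (-0.04, and up to 0.39 with another array left out), in Wiz without KO 2 (0.01) and after median centring (0.09), in Rbbp7 (-0.02) and Mbd2 (0.00) after cyclic loess, and in Cbx3 by row 4 (-0.63). The cause was not tested.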
